A study of Mus musculus with 12 samples.

Results

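The miR-181 family was measured here by 2 TaqMan assays, miR-181a and miR-181c, of 619 miRNA assay lines. The members were chosen by name, as every assay line with the family's number and any letter, arm or mark after it. The readout of a qPCR assay is its threshold cycle (Ct). Abundant miRNAs have a low Ct, and a step of 1 cycle corresponds to about a factor of 2. Both members stayed below a Ct of 28 throughout the 12 samples, and thus belonged to the 335 assays analysed. An assay named miR-213, an older name for the opposite arm of miR-181a from Mir181a-1, was also analysed but is not counted as a member, as its name has another number. miR-181b and miR-181d were not analysed here.

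The study profiled miRNAs in the hippocampus of mice with and without the P2X7 receptor, at rest and after status epilepticus (SE), to find miRNAs that depend on this receptor. Male C57BL/6 mice, 8 weeks old by the labels, were wild type (wt) or P2rx7-/-, a constitutive EUCOMM knockout that lacks an exon of P2rx7. Control mice received vehicle into the amygdala, and post-SE mice received kainic acid (KA) there, which triggers SE. The anticonvulsant lorazepam was given to all of them. Genotype and injection gave 4 groups of 3 samples, named control or post-SE for each genotype. For every sample, RNA came from 2 mice, whose hippocampi of the injected side were pooled 8 h after the injection. The OpenArray does not read P2rx7 mRNA, so in the values analysed here the genotypes rest on the labels. Of the miRNA assay lines, between 470 and 538 had a Ct in a sample, with the lowest number in wt control replicate 1 and the highest in P2rx7-/- control replicate 2.

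The miR-181 miRNAs are abundant in brain and in lymphoid cells, where they repress target mRNAs that pair with the seed at their 5′ end. In lymphocytes miR-181a is known for setting the sensitivity of the T cell receptor, and in brain the family has been linked to the response of neurons and astrocytes to stress and to inflammatory signaling. The P2X7 receptor is a cation channel opened by extracellular ATP and known for driving the release of inflammatory cytokines from microglia.

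The mature sequences of the 5p arms are shown because miR-181a and miR-181c are close in sequence and differ outside the seed, which bears on how far 2 assays can tell them apart. They are RefSeq sequences of the build GRCm38.p6, written 5′ to 3′ with the seed (bases 2 to 8) in capitals, and the assay names give no arm. The first pair has an assay and the second pair has the same seed.
mmu-miR-181a-5p: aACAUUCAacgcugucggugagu
mmu-miR-181c-5p: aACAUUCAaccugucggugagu
mmu-miR-181b-5p: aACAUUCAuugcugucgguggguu
mmu-miR-181d-5p: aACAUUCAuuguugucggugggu

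miR-181a-5p has 23 bases and miR-181c-5p has 22. Counted from the 5′ end of miR-181a-5p, the change that turns it into miR-181c-5p is G11del, with 10 shared bases before it and 12 after it. Whether either assay also reads the other miRNA was not tested. The seed was found in 4 of 1679 mature miRNA names of the RefSeq table, and these were the 4 miRNAs printed. miR-181a-5p comes from a pair of genes, Mir181a-1 (chr1:137966468-137966490, plus strand) and Mir181a-2 (chr2:38852741-38852763, plus strand), next to Mir181b-1 and Mir181b-2. Mir181a-2 lies within the span of the protein-coding gene Nr6a1 and the long noncoding RNA gene Nr6a1os. miR-181c-5p comes from Mir181c (chr8:84178924-84178945, minus strand), next to Mir181d. An assay for miR-181a cannot tell the products of its 2 genes apart, as their mature sequence is the same.

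miR-181a was among the more abundant assays. Its mean Ct over the 12 samples was 15.3, rank 59 of 335 by mean Ct, whereas the mean Ct of miR-181c was 18.9, rank 166. Ct values of different assays depend on each assay's efficiency, so these ranks describe readings and not molecules. For miR-181a, the wt controls had Ct values of 14.6, 14.4 and 14.8, the P2rx7-/- controls 15.3, 15.1 and 17.0, wt mice post-SE 15.2, 15.0 and 15.0, and P2rx7-/- mice post-SE 14.8, 15.4 and 16.6. For miR-181c, the Ct values of the wt controls were 17.9, 17.8 and 18.3, those of the P2rx7-/- controls 19.2, 18.7 and 22.1, those of wt mice post-SE 19.0, 18.1 and 17.9, and those of P2rx7-/- mice post-SE 18.6, 18.8 and 20.7. In both P2rx7-/- groups, and for both assays, replicate 3 had the highest Ct, that is the lowest level, of its group.

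For normalization, the mean Ct of the 335 assays in a sample was taken as the reference (global mean normalization), and this mean minus the Ct of the assay (-dCt) is a level on a log2 scale. On this scale miR-181a was at 4.42, 4.17 and 3.47 in wt controls, at 3.84, 3.78 and 2.11 in P2rx7-/- controls, at 4.06, 3.86 and 3.62 in wt mice post-SE, and at 3.71, 3.72 and 2.44 in P2rx7-/- mice post-SE. The wt control samples were spread widely enough to overlap with every other group, and replicate 3 of each P2rx7-/- group lay below all wt samples. miR-181c was at 1.19, 0.72 and -0.08 in wt controls, at 0.01, 0.19 and -2.99 in P2rx7-/- controls, at 0.23, 0.82 and 0.71 in wt mice post-SE, and at -0.07, 0.29 and -1.60 in P2rx7-/- mice post-SE. Here too most groups overlapped, and the lowest values were those of replicate 3 in both P2rx7-/- groups. The P2rx7-/- controls, at most at 0.19, lay only just below the wt mice post-SE, at least at 0.23. How many of the 335 assays separate these groups in this way was not counted.

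**Figure D1:**
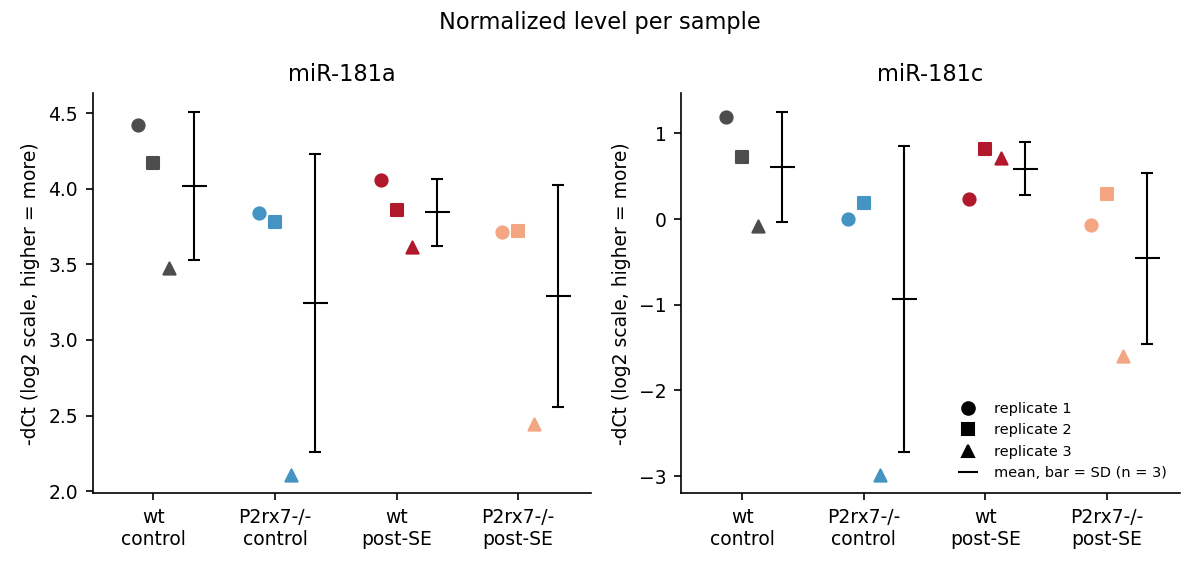
Level (-dCt, log2 scale) of miR-181a and miR-181c in each sample of the 4 groups, with the group mean and SD (n = 3) beside the points and the replicate number as the symbol; the vertical scales of the panels differ. Replicate 3 lies apart at 2.11 and 2.44 for miR-181a and at -2.99 and -1.60 for miR-181c in the P2rx7-/- groups.

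By group, the mean -dCt of miR-181a was 4.02 ± 0.49 (SD, n = 3) in wt control, 3.84 ± 0.22 in wt post-SE, 3.29 ± 0.74 in P2rx7-/- post-SE and 3.24 ± 0.98 in P2rx7-/- control samples, in descending order. For miR-181c the order was the same, with 0.61 ± 0.64 in wt control, 0.59 ± 0.31 in wt post-SE, -0.46 ± 1.00 in P2rx7-/- post-SE and -0.93 ± 1.78 in P2rx7-/- control samples. No neighbours in either order differed by more than the larger of their SDs, except wt post-SE and P2rx7-/- post-SE for miR-181c, whose distance of 1.05 was close to the SD of 1.00. In bulk tissue, fewer cells of a type and less miRNA per cell cannot be told apart. The spread within groups was larger for miR-181c than for most assays. The SD pooled over the 4 groups was 1.08 for miR-181c, and 75.2% of the 335 assays had a smaller one. For miR-181a it was 0.67, near the median of 0.64 over all assays.

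The first question was whether the loss of the receptor goes with another level at rest. The fold change (FC) of a sample was taken against the mean -dCt of the reference group, and following the rule of the study's methods an assay was called up when the average of its 3 FCs was above 1.5 and down when it was below 0.6. Relative to the wt controls, the FCs of miR-181c in P2rx7-/- controls were 0.658, 0.749 and 0.0826, an average of 0.497 ± 0.361 (SD, n = 3). The FCs of miR-181a were 0.883, 0.847 and 0.265, an average of 0.665 ± 0.347. Thus 1 of the 2 members, miR-181c, was called down, where the rule called 52 of the 335 assays (15.5%) down. All 3 P2rx7-/- samples lay below an FC of 1 for both members, but only replicate 3 lay below 0.6. Without it the average FC was 0.705 for miR-181c, which ends the call, and 0.867 for miR-181a. Without wt control replicate 1 the average FC of miR-181c was 0.611, just outside the call. Without wt control replicate 3, or without P2rx7-/- control replicate 1 or 2, that of miR-181a was 0.551, 0.559 and 0.574, which would be calls.

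The spread between samples covered these differences. The log2 difference was -1.54 for miR-181c, with a standard error of 0.81 and a 95% confidence interval from -3.35 to 0.27 (limma, adjusted p = 0.615 over the 335 assays). For miR-181a it was -0.78, with a standard error of 0.53 and an interval from -1.96 to 0.41 (limma, adjusted p = 0.668). A two-sided exact permutation test of 3 samples against 3, which cannot go below 0.1, gave p = 0.3 for each. limma called 0 of the 335 assays (0%) in this comparison, whereas 20 had an unadjusted p below 0.05, and the methods' two-group test gave 13 below 0.05 and 0 after Benjamini-Hochberg adjustment.

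In the same comparison between genotypes after SE, replicate 3 was again the lowest P2rx7-/- sample, from another pool of mice. The FCs of miR-181c were 0.632, 0.814 and 0.220, an average of 0.555 ± 0.305 (SD, n = 3), and miR-181c was called down, 1 of 2 members beside 15 of 335 assays (4.48%). The FCs of miR-181a were 0.914, 0.917 and 0.378, an average of 0.736 ± 0.310, which is not a call. Again only replicate 3 lay below 0.6, and without it the averages were 0.726 for miR-181c, no longer a call, and 0.919 for miR-181a. Without wt post-SE replicate 2 the average of miR-181c was 0.604, also not a call. The log2 differences were -1.05 (standard error 0.81, interval -2.86 to 0.76) for miR-181c and -0.55 (standard error 0.53, interval -1.74 to 0.63) for miR-181a, each with an adjusted p of 0.999 in limma. The exact permutation test gave p = 0.2 for miR-181c and p = 0.3 for miR-181a. limma called 0 of the 335 assays (0%), with 4 below 0.05 before adjustment, and the methods' two-group test gave 4 and, after adjustment, 0.

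The next question was whether SE itself went with a change 8 h later. In wt mice both members were near their control level. Relative to wt control samples, the FCs in wt post-SE samples were 1.03, 0.893 and 0.755 for miR-181a, an average of 0.892 ± 0.136 (SD, n = 3). They were 0.771, 1.16 and 1.07 for miR-181c, an average of 1.00 ± 0.203. The rule called 0 of the 2 members, beside 42 of 335 assays (12.5%) down and 78 (23.3%) up. The log2 difference was -0.18 for miR-181a, with an interval from -1.36 to 1.01, and -0.02 for miR-181c, with an interval from -1.83 to 1.79 (limma, adjusted p = 0.992 for each). The exact permutation p was 0.7 for miR-181a and 0.9 for miR-181c. limma called 0 of the 335 assays (0%), 13 had an unadjusted p below 0.05, and the methods' two-group test gave 11 and, after adjustment, 0.

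In P2rx7-/- mice, miR-181c was called up after SE. Relative to P2rx7-/- control samples its FCs were 1.81, 2.33 and 0.629, an average of 1.59 ± 0.872 (SD, n = 3). This was 1 of 2 members, beside 60 of 335 assays (17.9%) called up. The reference group was itself spread from 0.240 to 2.18 around its mean, and the low value was replicate 3. Without P2rx7-/- control replicate 3 the average FC was 0.782, on the other side of 1, and without both P2rx7-/- samples numbered 3 it was 1.02. Without P2rx7-/- post-SE replicate 1 or 2 it was 1.48 and 1.23, below the threshold. The FCs of miR-181a were 1.39, 1.39 and 0.574, an average of 1.12 ± 0.471. The log2 differences were 0.47 (standard error 0.81, interval -1.34 to 2.28) for miR-181c and 0.05 (standard error 0.53, interval -1.14 to 1.23) for miR-181a, with an adjusted p of 0.998 for each in limma. The exact permutation p was 0.7 and 1, respectively. limma called 0 of the 335 assays (0%), 10 had an unadjusted p below 0.05, and the methods' two-group test gave 8 and, after adjustment, 0.

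Against wt control samples, which are the shared reference of 3 of these comparisons, the P2rx7-/- post-SE samples had FCs of 0.623, 0.802 and 0.216 for miR-181c, an average of 0.547 ± 0.300 (SD, n = 3). For miR-181a the FCs were 0.808, 0.811 and 0.335, an average of 0.652 ± 0.274. The rule called 1 of 2 members, miR-181c, down, beside 44 of 335 assays (13.1%), and without P2rx7-/- post-SE replicate 3 its average was 0.713, above the threshold. It was 0.651 without wt control replicate 1. For miR-181a, leaving out wt control replicate 3 or P2rx7-/- post-SE replicate 1 or 2 gave 0.540, 0.574 and 0.586, which would be calls. The log2 differences were -1.07 (standard error 0.81, limma adjusted p = 0.721) for miR-181c and -0.73 (standard error 0.53, adjusted p = 0.712) for miR-181a. The exact permutation test gave p = 0.3 for each member. limma called 0 of the 335 assays (0%), with 12 below 0.05 before adjustment, and the methods' two-group test gave 16 and, after adjustment, 0.

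Over both treatments the genotype difference rests on 6 samples against 6. The mean -dCt of miR-181c was -0.69 in P2rx7-/- and 0.60 in wt samples, a log2 difference of -1.29. Permuting genotype within treatment gave p = 0.03 (exact, two-sided, 400 arrangements, smallest possible 0.005). miR-181a had means of 3.27 and 3.93, a log2 difference of -0.67 and p = 0.105 in the same exact permutation test. In the fit over all assays, the interval of this difference was -2.57 to -0.01 for miR-181c and -1.50 to 0.17 for miR-181a, and the adjusted p was 0.930 for each (limma), where 0 of 335 assays (0%) were called and 16 had an unadjusted p below 0.05. Without both P2rx7-/- samples numbered 3 the log2 difference was -0.49 for miR-181c (exact permutation p = 0.12) and -0.16 for miR-181a (p = 0.41). The direction was then the same and the difference smaller. For miR-181c, the p also rose above 0.05 when 1 of wt control replicate 1, wt control replicate 2, P2rx7-/- control replicate 3, wt post-SE replicate 2 or wt post-SE replicate 3 was left out (exact permutation p from 0.065 to 0.13). The log2 difference was then -0.77 without P2rx7-/- control replicate 3 and between -1.27 and -1.14 in the other 4. The interaction of genotype and treatment was 0.49 (standard error 1.15) for miR-181c and 0.23 (standard error 0.75) for miR-181a, with adjusted p of 0.917 and 0.939 in limma. For SE averaged over genotype the log2 difference was 0.22 (standard error 0.58) for miR-181c and -0.06 (standard error 0.38) for miR-181a, with adjusted p of 0.937 and 0.986. limma called 0 of the 335 assays (0%) for the interaction and for SE, with 8 and 11 below 0.05 before adjustment.

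**Figure D2:**
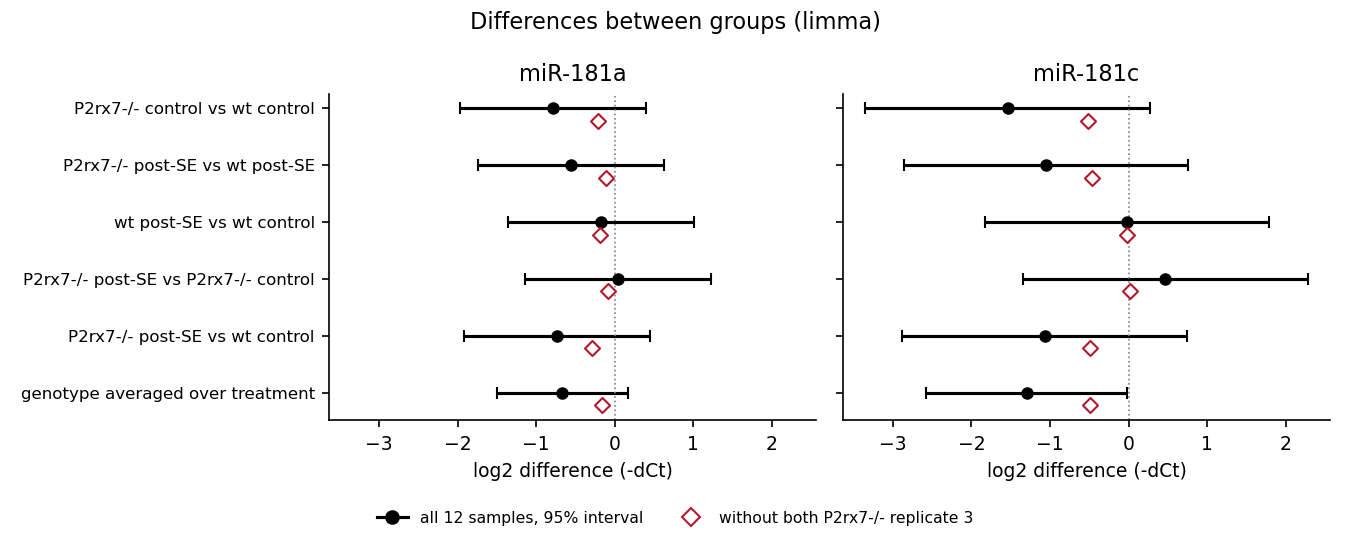
Log2 difference of -dCt for miR-181a and miR-181c in the 5 comparisons of 2 groups and for genotype averaged over treatment; circles with bars are the limma estimates from 12 samples with their 95% intervals, and diamonds are the estimates without both P2rx7-/- samples numbered 3. The intervals include 0 except that of genotype averaged over treatment for miR-181c (-2.57 to -0.01), whose diamond lies at -0.49.

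Because both assays were read in the same sample, the gap between their Ct values does not depend on the normalizer. The Ct of miR-181c exceeded that of miR-181a by 3.23, 3.44 and 3.56 cycles in wt controls, by 3.83, 3.59 and 5.09 in P2rx7-/- controls, by 3.83, 3.04 and 2.90 in wt mice post-SE, and by 3.79, 3.43 and 4.04 in P2rx7-/- mice post-SE. P2rx7-/- control replicate 3 had the widest gap. All 3 P2rx7-/- control samples had a wider gap than the wt control samples, by 0.761 cycles on average. This gives the smallest p that 3 against 3 samples allow (exact permutation p = 0.1, 0.3 after Benjamini-Hochberg adjustment over 6 comparisons). The groups only just separated, at 3.59 against 3.56 cycles, and how many other pairs of assays do so was not counted. Without P2rx7-/- control replicate 3 the mean difference was 0.300 cycles. Averaged over treatment, the mean gap was 3.96 cycles in P2rx7-/- and 3.33 in wt samples, a difference of 0.628 (exact permutation of genotype within treatment p = 0.045, adjusted p = 0.27 over the 6). Without both P2rx7-/- samples numbered 3 it was 0.326 (exact permutation p = 0.16), and leaving out any 1 of 8 of the 12 samples raised the p above 0.05, to between 0.06 and 0.1. In 7 of these 8 the difference was between 0.540 and 0.665 cycles, and without P2rx7-/- control replicate 3 it was 0.398. After SE the genotypes differed by 0.495 cycles (exact permutation p = 0.3, adjusted 0.45) with overlapping values, and the other comparisons had adjusted p from 0.45 to 0.7.

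**Figure D3:**
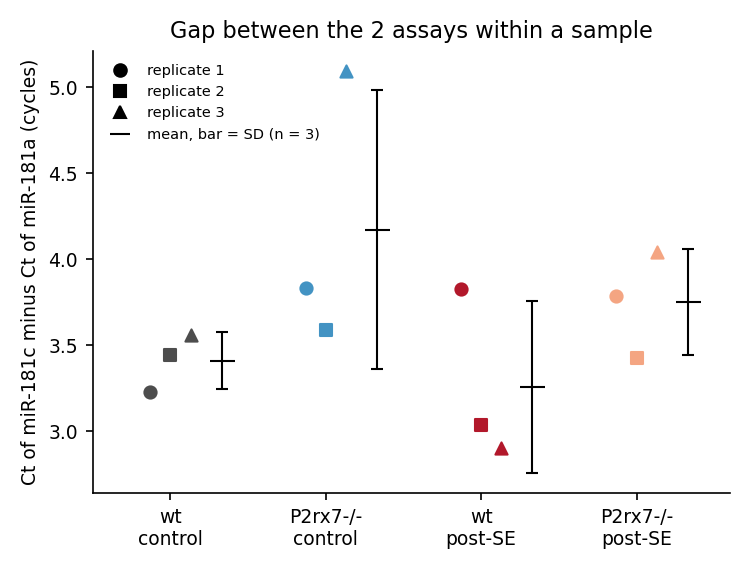
Ct of miR-181c minus Ct of miR-181a in each sample, in cycles, with the group mean and SD (n = 3) beside the points and the replicate number as the symbol. Group means are 3.41 (control) and 3.26 (post-SE) in wt mice and 4.17 (control) and 3.75 (post-SE) in P2rx7-/- mice, and P2rx7-/- control replicate 3 is highest at 5.09.

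The members varied together across samples. Over the 12 samples the -dCt of miR-181a and miR-181c had a Pearson r of 0.945 (permutation p = 0.00013, adjusted p = 0.000156 over 6 relations) and a Spearman rho of 0.811 (permutation p = 0.00191, adjusted p = 0.00191). With the group means removed, r was 0.942 and rho 0.923 (permutation p = 2e-05 and 9e-05), so that the relation lay within the groups. Without the 2 samples farthest from the median of miR-181a, which were the P2rx7-/- samples numbered 3, r was 0.664 and rho 0.673. With group means removed r was then 0.834, but those means had been taken over all 12 samples. That value is therefore not free of the samples left out. A large part of the pooled r therefore rests on these 2 samples. On raw Ct, r was 0.961 and rho 0.923 (permutation p = 3e-05 and 8e-05), and both assays share the RNA input of a sample. Of all 55945 pairs of analysed assays, 0.143% had an r at or above that of miR-181a and miR-181c, and the median r was 0.00.

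**Figure D4:**
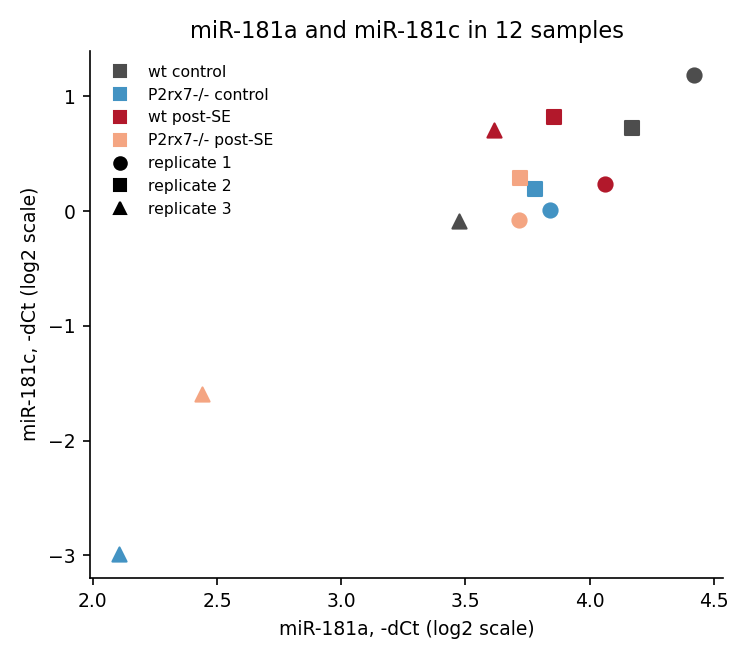
Level (-dCt, log2 scale) of miR-181c against that of miR-181a in 12 samples, with color for the group and the symbol for the replicate number. The P2rx7-/- samples numbered 3 lie at the lower left, at 2.11 and -2.99 (control) and at 2.44 and -1.60 (post-SE), and r falls from 0.945 to 0.664 without them.

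The assays most like the members were searched among the other 334 by Pearson r of -dCt over the 12 samples. For miR-181a the 5 most alike were miR-181c, let-7c (r = 0.907), let-7e (r = 0.905), miR-29c (r = 0.880) and miR-98 (r = 0.876). For miR-181c they were let-7e (r = 0.973), miR-29c (r = 0.962), miR-98 (r = 0.955), miR-181a and miR-148a (r = 0.926). Their mature sequences show that 3 of them share a seed, that of the let-7 family, which differs from the seed of miR-181. This does not hold for the let-7 family as a whole. let-7a, let-7b, let-7f and let-7g were analysed as well and were not among the 5 of either member. The arms printed are the main products of each hairpin, again from RefSeq (GRCm38.p6) with bases 2 to 8 in capitals.
mmu-let-7c-5p: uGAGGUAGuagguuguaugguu
mmu-let-7e-5p: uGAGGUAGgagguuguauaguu
mmu-miR-98-5p: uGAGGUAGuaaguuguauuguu
mmu-miR-29c-3p: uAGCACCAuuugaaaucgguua
mmu-miR-148a-3p: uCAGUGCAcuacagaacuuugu

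This likeness too leaned on the P2rx7-/- samples numbered 3. Without them, r with miR-181c was 0.843 for miR-98, 0.831 for miR-29c and 0.800 for let-7e, at ranks 2, 3 and 9 of 334, but 0.563 for miR-148a at rank 83, and miR-181a itself was at rank 44. With miR-181a, r was then 0.589 for let-7c at rank 39 and 0.458 for let-7e at rank 76, and miR-181c itself was at rank 23.

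To show how far these 2 samples stand apart, each was compared with the mean of the other 2 samples of its group. In P2rx7-/- control replicate 3 the distance in -dCt was -1.70 for miR-181a and -3.09 for miR-181c, which ranked 23 and 10 from the lowest of the 335 assays. In P2rx7-/- post-SE replicate 3 the distances were -1.28 and -1.71, ranks 34 and 18 from the lowest. More than 1 lower in both samples were 14 of the 335 assays, miR-181a, miR-181c, let-7e and miR-98 among them, and 12 were more than 1 higher in both. The miR-213 assay had distances of 0.20 and -0.07. The let-7 assays went both ways in these samples. let-7b (0.98 and 0.27) and let-7f (2.14 and 0.90) were higher in both. let-7a (-2.04 and -0.19), let-7c (-0.93 and -0.77), let-7e (-2.59 and -1.30) and let-7g (-0.69 and -0.83) were lower in both. Among the other samples, the lowest distances of both members were those of wt control replicate 3, at -0.82 for miR-181a and -1.04 for miR-181c.

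**Figure D5:**
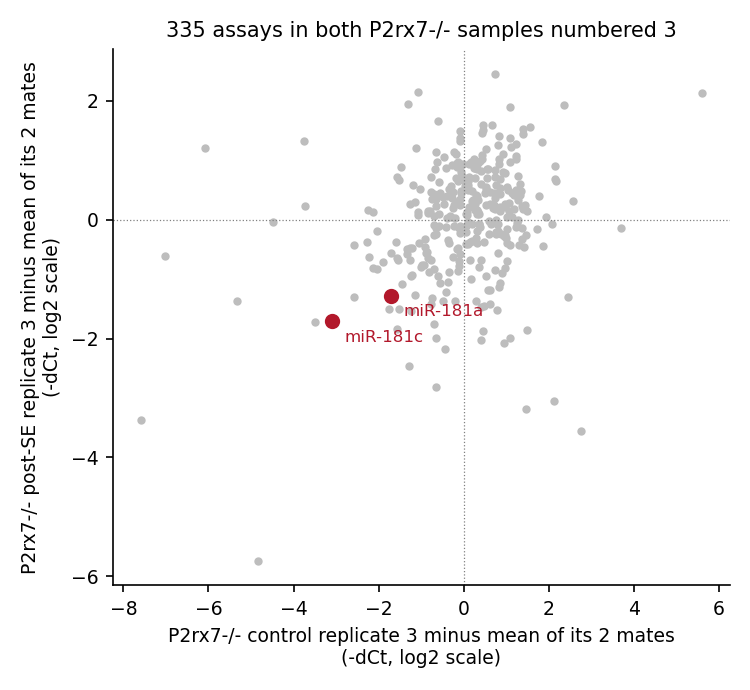
Distance of each of the 335 analysed assays from the mean of the other 2 samples of the group (-dCt, log2 scale) in P2rx7-/- control replicate 3 (horizontal) and P2rx7-/- post-SE replicate 3 (vertical). miR-181a (-1.70 and -1.28) and miR-181c (-3.09 and -1.71) lie at the lower left, among 14 assays below -1 on both axes.

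The normalizer and the control RNA snoRNA135 did not set these 2 samples apart. The mean Ct of the 335 assays was 19.2, 18.9 and 19.1 in P2rx7-/- controls and 18.5, 19.1 and 19.1 in P2rx7-/- mice post-SE. The median Ct of the snoRNA135 wells, a small nucleolar RNA read as a control, was 15.3, 15.1 and 15.3 in the former and 14.6, 15.5 and 15.0 in the latter. A second control, snoRNA202, lies near the lowest listed Ct and had between 3 and 16 wells with a Ct in a sample, so that its values are cut off. Between groups, however, snoRNA135 was not level, with a mean Ct of 14.3 ± 0.138 (SD, n = 3) in wt controls and 15.2 ± 0.134 in P2rx7-/- controls, and of 14.8 ± 0.355 in wt and 15.0 ± 0.455 in P2rx7-/- mice post-SE. With snoRNA135 as the normalizer the average FC of miR-181c in P2rx7-/- control samples was 0.678, above the threshold of the rule.

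Cell type markers were read from the same array. Of the 7 named for neurons, 5 had an assay line and 2 were analysed (miR-128a and miR-137), as miR-9, miR-138 and miR-124a had a listed Ct in 4, 10 and 11 of the 12 samples. The table also ends at the side of the most abundant miRNAs, since it lists no lower Ct than 10. The summed level of the neuronal markers (2 to the power of -dCt, relative to the wt control mean) was 0.559, 1.28 and 1.16 in wt controls, 1.03, 1.39 and 1.42 in P2rx7-/- controls, 1.92, 1.05 and 1.28 in wt mice post-SE, and 2.02, 1.14 and 1.05 in P2rx7-/- mice post-SE, with miR-128a the most abundant. The neuronal sum was thus highest of its group in P2rx7-/- control replicate 3 and lowest of its group in P2rx7-/- post-SE replicate 3, next to a replicate 2 of nearly the same level. On the log2 scale, miR-128a in replicate 3 was at -0.16 (control) and -0.49 (post-SE) against the other samples of its group. miR-137 was at 0.81 and -0.56, so that the markers disagreed in the control group.

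Both oligodendrocyte markers (miR-219, the most abundant, and miR-338-3p) were analysed, and their summed level was 1.05, 0.934 and 1.02 in wt controls, 0.708, 0.782 and 0.514 in P2rx7-/- controls, 0.562, 0.830 and 1.31 in wt mice post-SE, and 4.33, 0.644 and 0.565 in P2rx7-/- mice post-SE. Replicate 3 was the lowest of both P2rx7-/- groups here as well, but the markers disagreed. Against the other samples of its group, replicate 3 was at -0.66 (control) and -2.0 (post-SE) on the log2 scale for miR-219, and at -0.24 and 0.20 for miR-338-3p. miR-219 was called up in all 5 comparisons, just so at rest. Its average FC was 1.88 in wt mice after SE, 2.94 between genotypes after SE, 3.61 in P2rx7-/- mice after SE and 5.31 in P2rx7-/- post-SE relative to wt control samples. The first of these and the call at rest ended without wt control replicate 1 (0.965 and 0.771), and the others without P2rx7-/- post-SE replicate 1 (0.759, 0.932 and 1.37). The call at rest also ended without P2rx7-/- control replicate 1 or 2 (1.42 and 1.38). miR-338-3p was called down at rest (0.393) and in P2rx7-/- post-SE relative to wt control samples (0.375), and these calls held without any 1 sample. The part of this cell type in the miR-181 values was not tested.

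Of the 4 markers of myeloid and blood cells, read by 5 lines, 4 lines were analysed, led by miR-223. Their summed level was 0.682, 0.647 and 1.67 in wt controls, 0.734, 1.36 and 0.833 in P2rx7-/- controls, 0.571, 0.811 and 0.396 in wt mice post-SE, and 0.977, 0.605 and 1.51 in P2rx7-/- mice post-SE, and replicate 3 was the lowest of neither P2rx7-/- group. The lines disagreed, however. On the log2 scale, P2rx7-/- post-SE replicate 3 was at 1.05 and 1.52 for miR-223 against the other samples of its group. It was at -1.01 for miR-142-3p and at -0.68 for miR-451. In P2rx7-/- control replicate 3 these distances were, in the same order, -0.46, 0.46, 0.18 and 0.41. Between genotypes after SE, 3 of the 4 lines were called up, beside 17% of all assays, namely both of miR-223 and miR-451 (average FC 2.01, and 1.02 without P2rx7-/- post-SE replicate 1). Relative to wt controls, miR-451 was called down in wt mice post-SE (0.321), and miR-142-3p was called up in wt (1.79) and P2rx7-/- mice post-SE (1.65), in each by replicate 1 (0.935 and 0.883 without it). This call of miR-451 held without any 1 sample, at 0.572 without wt control replicate 1 and 0.202 without wt control replicate 3. Of the vessel markers 1 of 3 lines was analysed, miR-145, which was called up in P2rx7-/- controls (average FC 2.65) and wt post-SE samples (6.90) relative to wt controls and in P2rx7-/- post-SE relative to wt control samples (2.78), and was at 0.677 between genotypes after SE. Without wt control replicate 1 the first and the last of these calls ended (1.35 and 1.42), and without wt post-SE replicate 1 the second fell to 2.04. The neuronal marker miR-137 was called up in the same 3 comparisons (1.94, 3.02 and 2.08), and all 3 calls ended without wt control replicate 1 (0.914, 1.42 and 0.976). limma called neither marker. Of the choroid plexus markers 0 of 1 line was analysed.

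Among 9 names of inflammation-linked miRNAs, 6 assay lines were analysed. Of these, in P2rx7-/- controls against wt controls, 1 was called down and 1 up, where the rule called 15.5% of the 335 assays down and 71 (21.2%) up, with a median average FC of 1.09 beside 1.03 over all. miR-21, induced in glia by injury, had FCs of 0.629, 0.628 and 0.283, with only replicate 3 below 0.6. miR-155, induced in activated macrophages, had FCs of 0.504, 1.24 and 38.2, so that its call up came from replicate 3 as well. In P2rx7-/- post-SE relative to wt post-SE samples 0 were called down and 3 up, where the rule called 57 of the 335 assays (17%) up, with a median of 1.51 beside 1.04 over all. The 3 were miR-155 (average FC 2.91) and both assays of miR-223, a miRNA of myeloid cells (2.03 and 1.75), each with its highest FC in replicate 3, without which miR-155 was at 1.36 and the second assay of miR-223 at 1.09. After SE, miR-155 was called up in wt mice (average FC 1.95, beside 23.3% of all assays), and was at 1.26 without wt post-SE replicate 3. In P2rx7-/- mice, where 17.9% of all assays were called up, miR-155 (FCs 0.795, 0.721 and 3.33) and rno-miR-146B (1.24, 0.890 and 2.95) were called up, and were at 0.758 and 1.07 without P2rx7-/- post-SE replicate 3. The call of miR-155 also ended without P2rx7-/- control replicate 1 or 2 (0.676 and 1.06). Without P2rx7-/- control replicate 3 its average FC was 5.88. Relative to wt control samples, P2rx7-/- post-SE samples had miR-21 called down (0.443) and miR-155 (4.65) and rno-miR-146B (1.68) called up, beside 13.1% of the 335 assays down and 69 (20.6%) up. Without P2rx7-/- post-SE replicate 3, miR-155 was at 2.18 and rno-miR-146B at 1.06, no longer a call. Without wt control replicate 1, miR-21 was at 0.712 here and at 0.824 at rest, neither a call. limma called 0 of the 6 in any of the 5 comparisons, and 0 had an unadjusted p below 0.05.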

How the data were processed

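Total RNA (1 µg) of 12 hippocampal samples in 4 groups of 3 was read by TaqMan OpenArray. The authors deposited Ct values without normalization for 653 assay lines, and a table of fold changes, each a ratio to 1 wt control sample. All per-sample columns were assigned by name. The deposited fold changes served only as an alternative. With 1 reading of an assay per sample, the 3 samples of a group gave the error, and their number limits the precision. The wells of snoRNA135, which repeat within a sample, had a median SD of 0.281 cycles, with a range from 0.197 to 3.63 between samples. The table lists Ct values from 10.0 to 28.0.

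Assays with a Ct below 28 in all 12 samples were kept (335), and both miR-181 members passed. Global mean normalization, FCs, exact permutation tests and correlations (100000 resamples) used scipy 1.17.1, numpy 2.4.6 and pandas 2.3.3 in Python 3.11.15, and figures matplotlib 3.10.9. limma 3.58.1 (lmFit and eBayes, R 4.3.3) was fitted to -dCt over all 12 samples with 1 coefficient per group, with Benjamini-Hochberg adjustment over the 335 assays and calls below 0.05. The methods' two-group test at 0.05 and other normalizers, filters, averages and sample sets were alternatives. The FC rule, limma and the permutation tests were tested on simulated data, and no result given here rests on that. Names besides the members were the control assays, the 5 assays most like each member, the cell type markers and the inflammation-linked miRNAs past 1.5 or 0.6. The members and lists were chosen with earlier results of these data known.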

Additional observations from a re-analysis of the deposited data

How the results depend on the processing

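The lower level of miR-181c in P2rx7-/- mice kept its direction under every alternative run, while its call and its permutation p did not hold under all of them. The causes of the changes given here were not tested. Over 16 alternatives per comparison, without those that leave out a sample from outside it, the call down was kept under 11 at rest, 10 after SE and 11 in P2rx7-/- post-SE relative to wt control samples, and the call up in P2rx7-/- mice after SE under 9. With snoRNA135 as the normalizer, the average FC of miR-181c in these down calls was 0.678, 0.699 and 0.792, and with snoRNA202 it was 0.663 after SE, all above 0.6. A change of control RNA moves all assays alike, at rest by 0.46 on the log2 scale for snoRNA135 and by -0.24 for snoRNA202, which is cut off at the lowest listed Ct, and in P2rx7-/- control samples miR-181a was then called down with snoRNA202 (0.576). In wt mice after SE, where nothing was called, miR-181a was at 1.03 with snoRNA135 and 0.674 with snoRNA202, and miR-181c at 0.784 with snoRNA202. Without both P2rx7-/- samples numbered 3, the down calls of miR-181c ended at 0.703, 0.729 and 0.717 and the up call at 1.02. A p below 0.05 in the methods' two-group test as a further condition ended all 4 calls of miR-181c, at 0.497, 0.555, 0.547 and 1.59. The geometric mean gave 0.583 for miR-181a at rest, a call down, and 1.38 for miR-181c in P2rx7-/- mice after SE, no call. The deposited fold changes gave 1.03 for the latter, and 0.568 for miR-181a in P2rx7-/- post-SE relative to wt control samples, a call down.

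With 1 sample left out, the average FC at rest was between 0.551 and 0.867 for miR-181a and between 0.370 and 0.705 for miR-181c. After SE it was between 0.431 and 0.726 for miR-181c. In wt mice after SE it ran from 0.738 to 1.00 for miR-181a and from 0.787 to 1.20 for miR-181c, and in P2rx7-/- mice from 0.782 to 2.35 for miR-181c. For P2rx7-/- post-SE relative to wt control samples it ran from 0.540 to 0.811 for miR-181a and from 0.430 to 0.713 for miR-181c. The genotype difference averaged over treatment ranged from -1.57 to -0.77 for miR-181c, with an exact permutation p from 0.02 to 0.165 over all alternatives. It was -0.95 with snoRNA135 (exact permutation p = 0.165) and -0.49 without both samples numbered 3 (exact permutation p = 0.12). For miR-181a it was -0.72 with the mean of all detected assays (exact permutation p = 0.04). The gap between the Ct values ranged from 0.398 to 0.774 cycles between genotypes, and was 0.326 without both samples numbered 3, with an exact permutation p from 0.01 to 0.16. After SE the difference of this gap ranged from -0.440 to 0.0213 in wt and from -0.713 to 0.0401 in P2rx7-/- mice.

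Of 336 limma differences of the members under alternatives, 0 had an adjusted p below 0.05 (lowest 0.450), and 24 turned direction, none of them in the 4 contrasts of P2rx7-/- with wt samples. In wt mice after SE, the difference was 0.025 for miR-181a and 0.18 for miR-181c with snoRNA135, 0.35 for miR-181c with sample weights, and from -0.37 to 0.24 for miR-181c without 1 sample. In P2rx7-/- mice after SE, it was -0.083 for miR-181a without both samples numbered 3, -0.21 and -0.071 for miR-181a and miR-181c with weights, and from -0.51 to 0.48 and from -0.55 to 1.05 without 1 sample. For SE averaged over genotype, it was 0.028 for miR-181a with snoRNA135, -0.0023 for miR-181c without both samples numbered 3, and from -0.34 to 0.15 and from -0.29 to 0.51 without 1 sample. The interaction was -0.18 and -0.42 with weights, and from -0.33 to 0.67 and from -0.53 to 1.08 without 1 sample. The number of assays called by limma for SE averaged over genotype was 2 with the median as normalizer and 2 with a Ct below 26, and 0 or 1 without 1 sample. It was also 0 or 1 without 1 sample in wt post-SE relative to wt control, in P2rx7-/- post-SE relative to wt control and in P2rx7-/- post-SE relative to P2rx7-/- control samples.

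The number of assays that the FC rule called down ranged over the alternatives from 5 to 79 at rest and from 0 to 34 after SE between genotypes, from 2 to 74 in wt mice after SE, and from 6 to 71 in P2rx7-/- post-SE relative to wt control samples. In the same order, the numbers called up ranged from 2 to 150, from 2 to 95, from 4 to 95 and from 4 to 138, and in P2rx7-/- mice after SE from 2 to 79. The lowest came with the two-group test as a condition. Of 18 pairs of samples with the same number, 4 had deviations from the group means with r above 0.1. The highest 3, from 0.251 to 0.277, were the pairs numbered 3 that do not include a wt control sample. Of 12 samples, 6 correlated best with their own number, and the labels pair none of them. With the replicate block, the average FC of miR-181c was 0.422 at rest, 0.568 after SE, 0.503 in P2rx7-/- post-SE relative to wt control samples and 1.55 in P2rx7-/- mice after SE, with the same calls, and limma called 0 assays in any contrast. The precision is limited by 3 samples a group and 1 reading per assay.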

Other observations

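Of the 335 analysed assays, 84 had a catalogue number below 1000, miR-181a and miR-181c among them. Of these 84 assays, 24 (28.6%) were more than 0.5 lower on the log2 scale in both P2rx7-/- samples numbered 3 than in the other samples of their groups, and 6 (7.14%) were more than 0.5 higher in both. Of the other 251 assays, 18 (7.17%) were lower and 34 (13.5%) higher by the same measure. With a limit of 1 in place of 0.5, 7 of the 84 (8.33%) were lower and 1 (1.19%) higher. Of the 251, 7 (2.79%) were then lower and 11 (4.38%) higher. Of the 5 assays most like the miR-181 members other than the members themselves, 4 had a catalogue number below 1000, and let-7e was the exception. These 5 were picked by a likeness that leaned on the same samples, so they are no separate evidence. The limit of 1000 was chosen after the values were seen, and the part of the catalogue number in the miR-181 values was not tested.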
